A study of Bos taurus with 18 samples.

Results

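Molecular chaperones of the heat shock protein (HSP), DNAJ, CCT and BAG families were followed at the RNA level through bovine oocyte maturation and early embryo development. The 82 genes were all those of the deposited table whose symbol starts with HSP and a number or a letter from A to E, with DNAJA, DNAJB or DNAJC and a number, with CCT and a number or with BAG and a number, out of 21668 genes in all. They comprised 3 HSP90 genes, 14 HSPA genes (the HSP70 family), 6 HSPB genes (small heat shock proteins), HSPD1 and HSPE1, 4 DNAJA, 12 DNAJB and 26 DNAJC genes, 8 CCT genes, 5 BAG genes and 2 genes named for binding other HSPs (HSPBP1 and HSPBAP1). RNA was sequenced in 18 libraries, 3 for each of 6 stages. The stages were immature oocytes that still hold their nucleus, the germinal vesicle (GV oocytes), oocytes matured in vitro to metaphase II (MII oocytes), and embryos produced in vitro with 4 cells, 8 cells or 16 cells and as blastocysts. The oocytes were German Simmental and the embryos German Simmental x Brahman. Breed therefore cannot be told apart from stage in any comparison of embryos with oocytes. These are the step from MII oocyte to 4-cell embryo and all comparisons of blastocysts with GV oocytes. A library stands for a pool of 10 oocytes or 10 embryos, and the labels name no treatment that differs between the groups. The labels do not say whether the pools of a stage came from separate collections, so the p-values measure the spread between these libraries, which may be technical.

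Chaperones bind proteins that are not yet folded, keep them from clumping and help them reach their shape. HSP70 proteins work in ATP-driven cycles: DNAJ proteins bring them clients and start ATP hydrolysis, while BAG proteins and the HSP110 relatives HSPA4 and HSPA4L release the nucleotide and so the client. HSP90 acts later on signalling proteins, the ring-shaped CCT complex folds actin and tubulin in the cytosol, and HSPD1 with its lid HSPE1 forms the corresponding chamber in mitochondria. In the early embryo, HSP70 transcripts are known among the first products of the embryonic genome, whose main activation in cattle falls around the 8-cell to 16-cell stage.

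Levels are given as scaled counts, the reads recovered from the deposited values and put on a common scale across libraries. They are relative to the other RNAs of a library, and levels are compared only within a gene because no gene lengths were used. Differences between stages are differences of mean deposited values, on a log2-like scale, later stage minus earlier stage, with their standard error (SE). The libraries held 2438473 to 11971840 reads assigned to genes, and 1 read was worth 0.563 to 2.82 scaled counts. The summed level of 10 oocyte markers was 93780 to 125200 in GV oocytes and 100.7 to 313.3 in blastocysts, in the order of the labels. That of 8 blastocyst markers was 1307 to 2194 in 16-cell embryos and 27010 to 59810 in blastocysts. The largest means in blastocysts were those of KRT8 (19590), KRT18 (13820) and PTGS2 (10670). NANOG and ATP1B1 went the other way, from means of 1537 and 26.7 in 16-cell embryos to 168 and 5.2 in blastocysts. Of the 8, 6 were called higher at that step and 1 lower. The summed level of 18 cumulus and granulosa markers was 3721 to 5062 in GV oocytes, 819 to 2075 in 16-cell embryos and 6955 to 17640 in blastocysts, with PTGS2, also a blastocyst marker, at a mean of 10670 there. FOXL2, a defining granulosa marker, had 0 reads at every stage before the blastocyst and 1 read there. It was 1 of 3 of the 18 markers with 0 reads in GV oocytes. The highest means there were those of STAR (1665), VCAN (848), HAS2 (728.5) and PTGS2 (679.8). FSHR, INHA and FST were at 32.6, 32.2 and 41.3 in GV oocytes and at 0, 0.858 and 0.572 in MII oocytes. The part of these cells in the chaperone levels was not tested. A pair of libraries stood apart by their median deposited value, replicate 2 of the 8-cell stage (3.31, with the others of that stage at 4.19 and 4.49) and replicate 1 of the 16-cell stage (3.04, with the others at 4.39 and 4.62).

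Of the 82 genes, 77 had at least 1 read in at least 3 libraries and were tested. HSPA1A, HSPA1B and DNAJC5B had 0 reads in all 18 libraries, DNAJB8 had 8 reads in all and HSPB9 had 23. Between any of the 6 stages, 53 of the 77 genes differed in an F test (limma, adjusted p under 0.05), or 68.8%, beside 67% of all 17138 genes tested. The share of chaperone genes that changed at all was thus near that of genes in general. By family, 3 of 3 HSP90 genes, 9 of 12 HSPA genes, both of HSPD1 and HSPE1, 7 of 8 CCT subunits and 20 of 25 DNAJC genes differed, compared with 3 of 5 HSPB, 3 of 5 BAG, 5 of 11 DNAJB and 1 of 4 DNAJA genes. Neither HSPBP1 nor HSPBAP1 differed in this test.

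No chaperone gene was called in either direction between GV and MII oocytes, where 0.0992% of all genes tested were called higher and 0.613% lower (limma, adjusted p under 0.05). At an unadjusted p under 0.05 there were 7 chaperone genes, and limma on recovered reads (voom) also called 0. Between MII oocytes and 4-cell embryos again no chaperone gene was called, against a background of 0.0642% higher and 0.729% lower, with 7 at an unadjusted p under 0.05 and 0 by voom. The lowest adjusted p of that step were those of CCT7, at 0.0688, and DNAJC19, at 0.0924. Without replicate 2 of the 8-cell stage, 1 gene was called lower in MII oocytes than in GV oocytes, and 1 was called in each direction between MII oocytes and 4-cell embryos.

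From the 4-cell to the 8-cell stage, 9 chaperone genes were higher and 4 were lower, which is 11.7% and 5.19% of those tested, against a background of 8.64% and 4.13%. From the 8-cell to the 16-cell stage, 20 were higher and 14 lower, or 26% and 18.2%, against 14.8% and 16.3%. Blastocysts compared with 16-cell embryos had 17 higher and 6 lower, or 22.1% and 7.79%, against 18.2% and 13.1%. Across the whole series, from GV oocytes to blastocysts, which also differ in breed, 29 genes were higher and 12 lower, or 37.7% and 15.6%, against 25.6% and 20.4%. In these 4 comparisons the share of chaperone genes called higher lay above that of all genes, but at the 8-cell stage, with 9 genes, it was near it. The share called lower was near that of all genes at the 8-cell and 16-cell stages and below it in blastocysts. The higher counts include DNAJB7 at the 16-cell stage and HSPB3 and HSPB8 in blastocysts, whose calls are given no weight below. Of the calls, 69.2% were higher at the 8-cell stage, 58.8% at the 16-cell stage and 73.9% in blastocysts against 16-cell embryos. With library medians set equal these shares were 38.5%, 48.1% and 61.9%, so that more chaperone genes were lower than higher at the 8-cell and 16-cell stages. Over all genes tested, 1480 were called higher and 708 lower at the 8-cell stage, and 2537 and 2800 at the 16-cell stage. In blastocysts these counts were 3117 and 2250. With library medians set equal, the lower calls over all genes were 1016 of 2221, 2896 of 5106 and 2874 of 5282, in the same order. At the 16-cell stage, lower calls thus outnumbered higher ones over all genes in both scalings. Without replicate 2 of the 8-cell stage and replicate 1 of the 16-cell stage together, 10 chaperone genes were higher and 4 lower at the 8-cell stage, 14 and 10 at the 16-cell stage, and 17 and 8 in blastocysts.

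**Figure D1:**
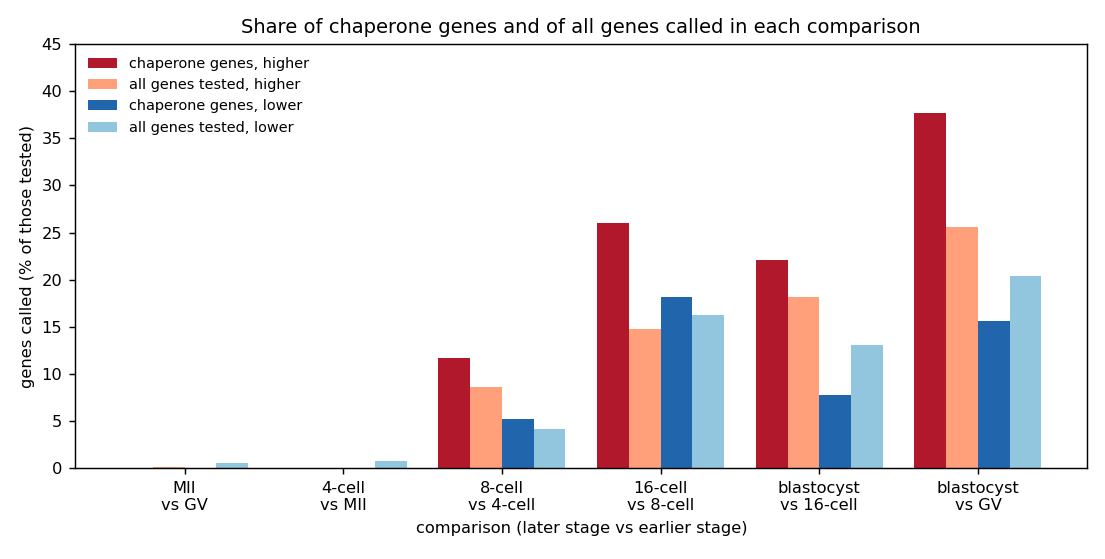
Percentage of genes called higher or lower (limma, adjusted p under 0.05) in each comparison of stages, for the 77 chaperone genes tested (dark bars) and all 17138 genes tested (light bars). No chaperone gene was called in either oocyte step or at the 4-cell stage, and the largest share, 37.7%, was that of genes higher in blastocysts than in GV oocytes.

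A total of 52 chaperone genes were called in at least 1 of the 5 adjacent steps, 36 of them in 1 step, 14 in 2 and 2 in 3. The other 25 were called in none. These counts were not made over all genes tested, so they are not read as particular to chaperones. The mean level was highest in blastocysts for 32 of the 77 genes, or 41.6%, compared with 30.4% of all genes tested. It was highest in GV oocytes for 9, or 11.7%, compared with 12.2%. Together the 82 genes took 0.971 ± 0.0399% of reads in GV oocytes (SD, n = 3, here and below), 0.791 ± 0.111% at the 8-cell stage, 1.06 ± 0.107% at the 16-cell stage and 2.36 ± 0.355% in blastocysts. The families did not share this evenly: from GV oocytes to blastocysts the HSPA genes went from 0.27 ± 0.0248% to 0.888 ± 0.188%, the HSP90 genes from 0.271 ± 0.0198% to 0.664 ± 0.164% and the CCT genes from 0.121 ± 0.00851% to 0.319 ± 0.046%. The DNAJ families ended near their first level, with DNAJA at 0.0166 ± 0.000997% and 0.0163 ± 0.000218%, DNAJB at 0.0594 ± 0.00392% and 0.0507 ± 0.0104%, and DNAJC at 0.174 ± 0.00961% and 0.183 ± 0.0199%. In between they moved: DNAJA was at 0.00896 ± 0.000733% at the 16-cell stage and DNAJB at 0.0782 ± 0.00445% at the 8-cell stage. DNAJC was at 0.193 ± 0.00312% at the 8-cell stage and 0.159 ± 0.0029% at the 16-cell stage. The 3 blastocyst libraries, at summed scaled counts of 195580, 131910 and 165800, all lay above the highest of the 15 earlier libraries, at 82569.

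**Figure D2:**
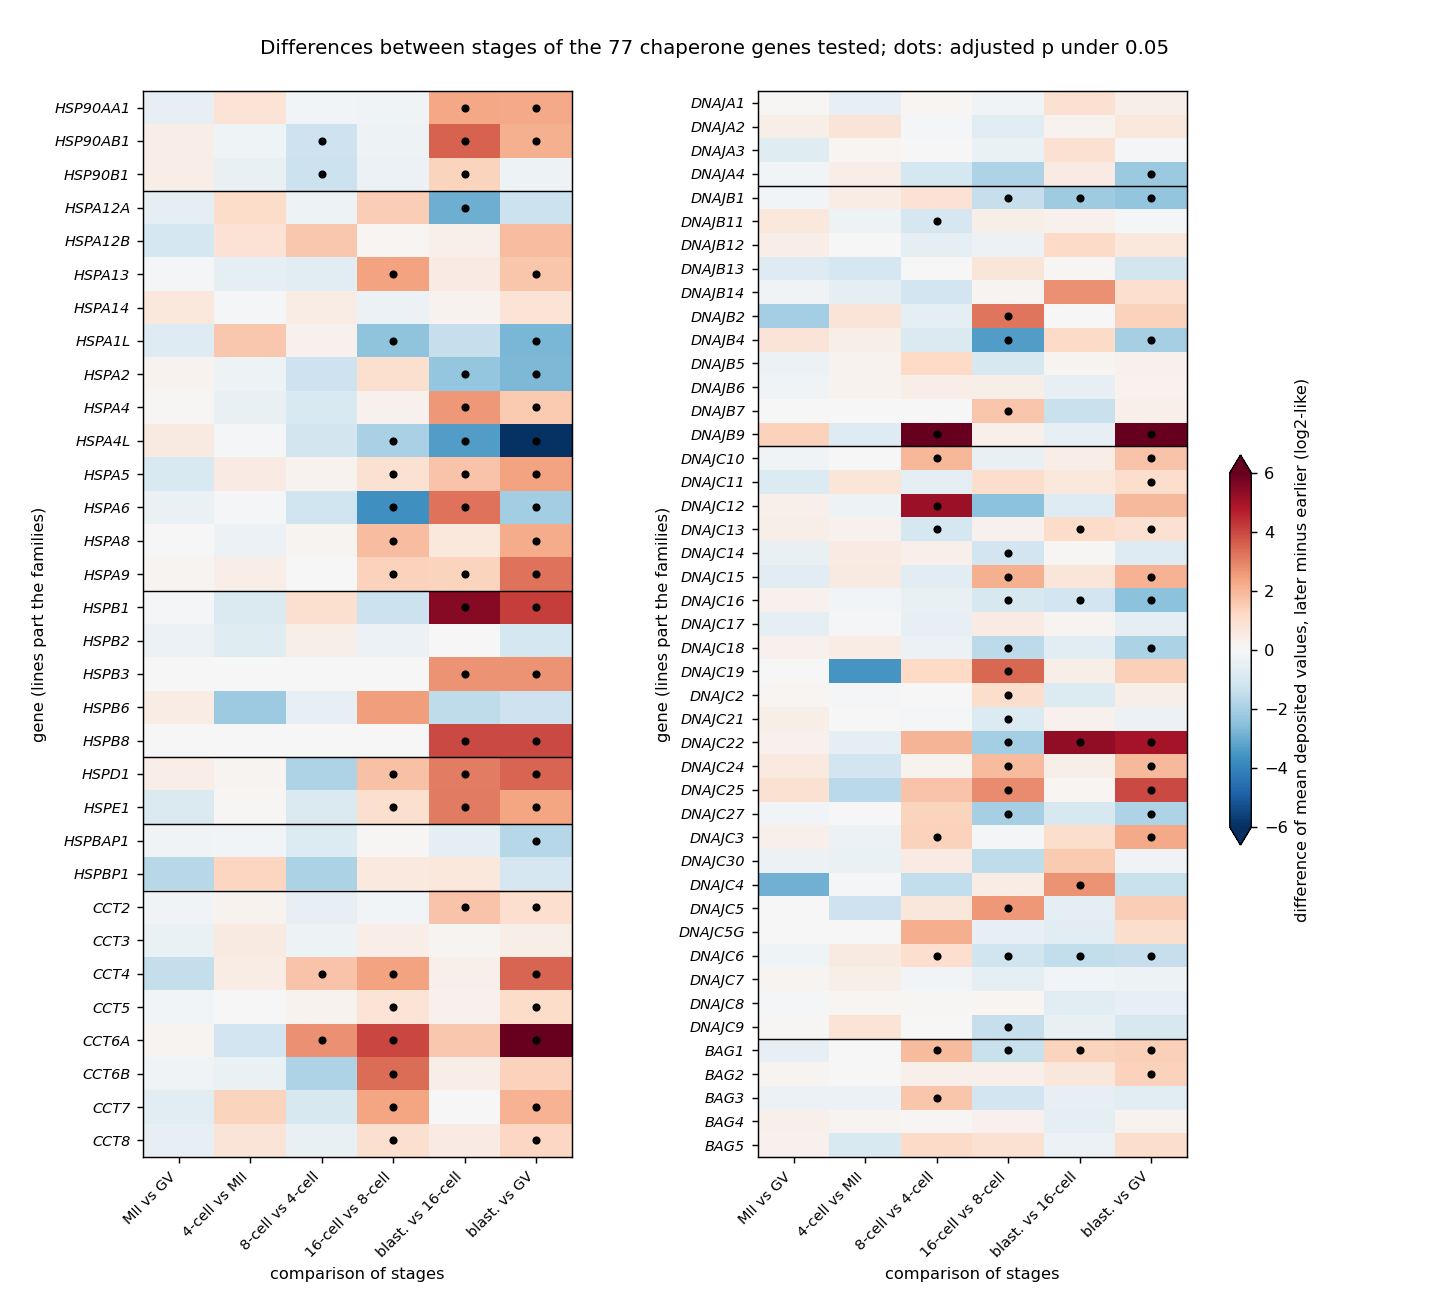
Difference of mean deposited values (log2-like scale, later minus earlier stage) for each of the 77 chaperone genes tested, in rows by family, in 6 comparisons of stages in columns. Red is higher and blue lower in the later stage, colours saturate at 6 in either direction, and a dot marks an adjusted p under 0.05. Dots begin in the third column, at the 8-cell stage.

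All 3 HSP90 genes were higher in blastocysts than in 16-cell embryos, where 18.2% of all genes tested were called higher. HSP90AA1 and HSP90AB1 encode the inducible and the constitutive cytosolic forms of HSP90, and HSP90B1 (GRP94) is the form of the endoplasmic reticulum (ER). HSP90AB1 was at 3215, 3991 and 2969.7 in the 4-cell libraries, 1233, 1796 and 1352 at the 8-cell stage, 1108, 1248 and 1108 at the 16-cell stage and 13807, 11222 and 15210 in blastocysts. No library of the lower stages reached the lowest 4-cell library, and none of the earlier stages reached any blastocyst. It fell at the 8-cell stage (difference -1.22 ± 0.23, adjusted p = 0.000721), did not pass the test at the 16-cell stage (difference -0.32 ± 0.23, adjusted p = 0.306) and rose 11.6-fold in blastocysts (difference 3.52 ± 0.23, adjusted p = 4.3e-10). In whole embryos, fewer cells of a type and less RNA per cell cannot be told apart.

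HSP90AA1 stayed between 3619 (MII oocytes) and 6359 (4-cell embryos) as a stage mean until the 16-cell stage, with no call in the 4 steps up to there. It was at 6012, 3619.7 and 5406 at the 16-cell stage and 35910, 17174 and 23431 in blastocysts, a rise of 5.09-fold (difference 2.31 ± 0.26, adjusted p = 1.12e-06). Every blastocyst library lay above the highest earlier library of this gene, 7321 in a 4-cell library. HSP90B1 followed another course: it was at 6958, 8626 and 10693 at the 4-cell stage, 4412, 2601 and 3844 at the 8-cell stage, 1996, 2289.8 and 4818 at the 16-cell stage and 10910, 4563 and 7299.7 in blastocysts. It fell at the 8-cell stage (difference -1.29 ± 0.33, adjusted p = 0.0117) and rose in blastocysts (difference 1.35 ± 0.33, adjusted p = 0.00358), where the libraries of both stages overlapped. The fall was lost without replicate 3 of the 4-cell stage (adjusted p = 0.0624) or replicate 2 of the 8-cell stage (adjusted p = 0.0503), and the rise when library medians were set equal (adjusted p = 0.0625). Between GV oocytes and blastocysts HSP90AA1 and HSP90AB1 were higher, by 2.27 ± 0.26 and 2.12 ± 0.23 (SE), and HSP90B1 differed by -0.32 ± 0.33 (adjusted p = 0.455).

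**Figure D3:**
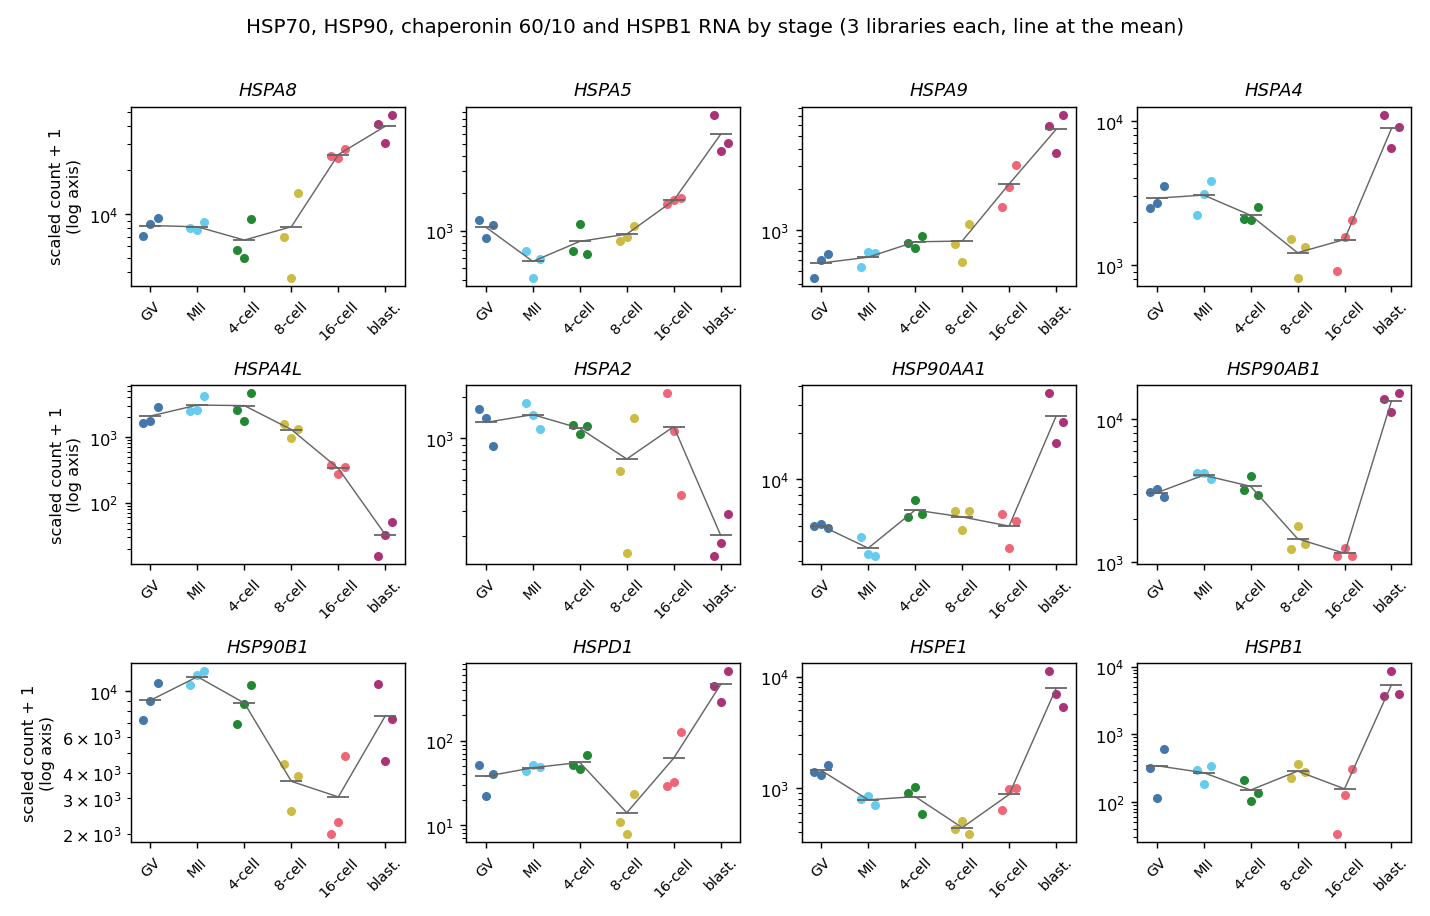
Scaled counts plus 1 (log axis, each panel with its own range) of 12 HSP genes in each library by stage. Points are the 3 libraries of a stage and horizontal marks their mean. HSPA8 and HSPA9 step up at the 16-cell stage, HSP90AA1, HSP90AB1, HSPA4, HSPE1 and HSPB1 in blastocysts, and HSPA4L descends from the 4-cell stage on.

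Among the HSPA genes, 4 of 12 were higher and 3 lower at the 16-cell stage, and 4 were higher and 3 lower in blastocysts compared with 16-cell embryos. At both steps these were 33.3% and 25%. For all genes the shares were 14.8% and 16.3% at the 16-cell stage and 18.2% and 13.1% in blastocysts. The counts are small. None was called at the 8-cell stage. HSPA8 (HSC70), the constitutive cytosolic HSP70, was at 7062, 8571 and 9386 in GV oocytes, 6930.3, 3669.8 and 13958 at the 8-cell stage, 24782, 23974 and 27617 at the 16-cell stage and 41419, 30330 and 47478 in blastocysts. The 16-cell libraries lay close together and above each of the 12 earlier libraries, while the 8-cell libraries spanned the range of all earlier stages, with replicate 2 lowest. HSPA8 rose 3.11-fold at the 16-cell stage (difference 1.84 ± 0.34, adjusted p = 0.000359). The later difference, in blastocysts, was 0.62 ± 0.34 (SE, adjusted p = 0.174), although no library of either stage overlapped.

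HSPA5 (BiP, GRP78), the HSP70 of the ER, and HSPA9 (mortalin), that of mitochondria, rose at both late steps. HSPA5 was at 831, 889 and 1088 at the 8-cell stage, 1646, 1759 and 1847 at the 16-cell stage and 8566, 4350.1 and 5051 in blastocysts. The gene rose at the 16-cell stage (difference 0.91 ± 0.31, adjusted p = 0.0294) and 3.42-fold in blastocysts (difference 1.71 ± 0.31, adjusted p = 0.00023). The first of these calls was lost without replicate 1 or 2 of the 8-cell stage (adjusted p = 0.0876 and 0.0683) and without replicate 2 or 3 of the 16-cell stage (adjusted p = 0.059 and 0.0685). It was also lost in 5 of the 9 other settings, among them array weights (adjusted p = 0.102), voom (0.062), equal library medians (0.118) and both stages alone (0.105). HSPA9 was at 786, 583 and 1114 at the 8-cell stage, 1468, 2064 and 3034 at the 16-cell stage and 5851, 3693 and 7104 in blastocysts. Its libraries did not overlap between these stages, and both rises passed (difference 1.39 ± 0.33, adjusted p = 0.00314, then difference 1.35 ± 0.33, adjusted p = 0.0032). From GV oocytes to blastocysts HSPA9 went from 569 ± 115 to 5549.5 ± 1726, or 9.76-fold.

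HSPA4 and HSPA4L, both HSP110-type exchange factors of HSP70, went in opposite directions in blastocysts. HSPA4 was at 903, 1556 and 2045 at the 16-cell stage and 11047, 6502 and 9131 in blastocysts, a rise of 5.92-fold (difference 2.61 ± 0.32, adjusted p = 3.21e-06). HSPA4L was at 2566, 1775 and 4674 at the 4-cell stage, 1596, 965 and 1336 at the 8-cell stage, 379.8, 274 and 345 at the 16-cell stage and 14.7, 31.8 and 49.4 in blastocysts. Each stage after the 4-cell stage lay below all libraries of the stage before. The 8-cell difference did not pass (difference -1.12 ± 0.41, adjusted p = 0.0796), while the falls at the 16-cell stage (difference -1.93 ± 0.41, adjusted p = 0.00128) and in blastocysts (difference -3.34 ± 0.41, adjusted p = 2.92e-06) did. Compared with GV oocytes, the mean in blastocysts was 65.4-fold lower for HSPA4L and 3.06-fold higher for HSPA4.

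Other HSPA genes that fell were HSPA2, HSPA6, HSPA1L and HSPA12A. HSPA2, needed for sperm formation in mice, was at 2119, 1138 and 392 at the 16-cell stage and 143, 175 and 284 in blastocysts and fell there (difference -2.33 ± 0.60, adjusted p = 0.00496). The 8-cell and 16-cell libraries of HSPA2 were widely spread, and all 3 blastocysts lay below the lowest 16-cell library. HSPA6, a stress-inducible HSP70 in humans, was at 52.8, 7.64 and 26.2 at the 8-cell stage, at 0 reads in all 3 16-cell libraries and at 18, 16.4 and 15.5 in blastocysts. Against a floor of 3 reads over the 16-cell stage, it was at least 17.2-fold lower there than at the 8-cell stage and at least 9.89-fold higher again in blastocysts (adjusted p = 0.00083 and 0.00171). HSPA1L, which is known from testis, fell at the 16-cell stage from 139 ± 72.2 to 27.2 ± 22.5 (adjusted p = 0.0467), but 14 of the 18 fits with 1 library left out lost this call, with adjusted p up to 0.193 without replicate 3 of the 16-cell stage. HSPA12A, a distant HSP70 relative, fell in blastocysts from 154 ± 49.4 to 43.8 ± 66.5 (difference -2.94 ± 0.93, adjusted p = 0.019), with libraries at 1.33, 120.5 and 9.68 that overlap those of 16-cell embryos. This call was lost without replicate 3 of the 16-cell stage, replicate 1 or replicate 3 of the blastocysts (adjusted p = 0.0559, 0.138 and 0.0641).

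HSPA13 (STCH), an ER-associated HSP70 relative, rose at the 16-cell stage from 29.9, 81.7 and 97.1 to 234, 282 and 642 (difference 2.40 ± 0.51, adjusted p = 0.00139). All 3 16-cell libraries were above every 8-cell library. HSPA12B and HSPA14 were called in no comparison, with stage means of HSPA14 between 419 and 864. The stress-inducible genes HSPA1A and HSPA1B, the classical heat shock HSP70 pair, had 0 reads in every library. RefSeq lists HSPA1B and, besides a gene of that name, HSPA2 as older names of HSPA1A, so which locus the HSPA1A, HSPA1B and HSPA2 entries of the deposited table stand for is uncertain. HSP70 genes are also close copies of each other, HSPA8 and HSPE1 have processed copies in mammalian genomes, and how reads that match several of them were counted is not given in the sources used here.

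HSPD1 (HSP60) and its co-chaperonin HSPE1 (HSP10) were both higher at the 16-cell stage and higher again in blastocysts. HSPE1 was at 901, 1025 and 585 at the 4-cell stage, 432, 503 and 386 at the 8-cell stage, 631, 985 and 1006 at the 16-cell stage and 11184, 6997 and 5363 in blastocysts. The 8-cell libraries were below all others, and the blastocysts were above all others. HSPE1 rose at the 16-cell stage (difference 0.96 ± 0.31, adjusted p = 0.0224) and 8.98-fold in blastocysts (difference 3.12 ± 0.31, adjusted p = 1.87e-07). HSPD1 was at 50.6, 45.7 and 66.6 at the 4-cell stage, 9.98, 6.87 and 22.3 at the 8-cell stage, 28.1, 31.1 and 124 at the 16-cell stage and 437, 286 and 663 in blastocysts. Its mean was lowest at the 8-cell stage, where 1 library overlapped the GV oocytes, and highest in blastocysts, after a 7.55-fold rise in blastocysts (difference 3.06 ± 0.65, adjusted p = 0.000997). Neither 8-cell difference passed (adjusted p = 0.0647 for HSPE1 and 0.0622 for HSPD1). The 16-cell rise of HSPD1 (difference 1.74 ± 0.65, adjusted p = 0.0456) was lost in 14 of the 18 fits with 1 library left out, with the highest adjusted p, 0.226, without replicate 3 of the 16-cell stage. That of HSPE1 was lost without replicate 1 or 3 of the 8-cell stage (adjusted p = 0.0527 and 0.0587) and without replicate 2 or 3 of the 16-cell stage (adjusted p = 0.0693 and 0.0727).

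The small heat shock proteins, which hold unfolded proteins without using ATP, were called in no step before the blastocyst. HSPB1 (HSP27), which also binds the actin cytoskeleton, was at 320.4, 112 and 597 in GV oocytes, 224, 358 and 273 at the 8-cell stage, 32.6, 127 and 306 at the 16-cell stage and 3663, 8611 and 3950.4 in blastocysts. No earlier library came near the blastocysts, and the mean rose 34.8-fold from the 16-cell stage (difference 5.45 ± 0.63, adjusted p = 1.52e-06). HSPB8, a partner of BAG3, had 0 reads in the 15 libraries before the blastocyst and was at 14, 99.7 and 16.5 there (129 reads), at least 25.8-fold higher than in 16-cell embryos by a floor of 3 reads over that stage. HSPB3, named after its values were seen because it is the third HSPB gene called, likewise had reads in blastocysts alone, 33 in all (6.67, 15.3 and 8.71), at least 6.08-fold above 16-cell embryos by the same floor. Both HSPB8 and HSPB3 entered the test through their blastocyst reads alone and so had to differ, which leaves their calls, though counted above, without weight as support. HSPB6 (HSP20) had stage means of 6.82 to 58.4 and was not called, and HSPB2 had 11 reads in the whole series.

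DNAJA genes, the closest to bacterial DnaJ, were not called in any adjacent step. DNAJA1, the main farnesylated cytosolic partner of HSPA8, had stage means of 239 to 461, DNAJA2, its cytosolic relative, 185 to 410, and DNAJA3, the mitochondrial member, 159 to 323. None of these 3 was called in any of the 6 comparisons. DNAJA4 was lower in blastocysts than in GV oocytes (difference -2.21 ± 0.71, adjusted p = 0.0146), with libraries at 10.7, 194 and 19.4 and 212, 169.6 and 174 that overlap. Replicate 2 of the blastocysts stood far above the other blastocyst libraries of this gene, and the call was lost without blastocyst replicate 1 or 3 (adjusted p = 0.108 and 0.0712).

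Of the DNAJB genes, DNAJB9 (ERdj4), an ER partner of HSPA5 and a textbook target of the unfolded protein response, had the largest difference of deposited values of any chaperone gene at the 8-cell stage. DNAJB9 was at 1.9, 0 and 0 in GV oocytes, 0, 1.98 and 32.6 in MII oocytes, 1.69, 0 and 3.92 at the 4-cell stage, 436, 349 and 577 at the 8-cell stage, 744, 429 and 523 at the 16-cell stage and 743, 195 and 424 in blastocysts. All 9 libraries from the 8-cell stage on were above all 9 earlier ones, whose highest value was 32.6 in an MII library. The rise at the 8-cell stage was from 6 to 1508 reads over the stage (difference 6.69 ± 0.87, adjusted p = 1.3e-05), and neither later step passed (adjusted p = 0.844 and 0.735). DNAJB11 (ERdj3), another ER partner of HSPA5, moved the other way at the 8-cell stage, from 1037, 1108 and 1024 to 563, 499 and 521 (adjusted p = 0.0423). Its libraries did not overlap, but 12 of the 18 fits with 1 library left out lost the call, with adjusted p up to 0.118 without replicate 2 of the 4-cell stage.

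DNAJB1 (HSP40), the main stress-inducible cytosolic partner of HSP70, was at 1299, 1385 and 1218 at the 4-cell stage, 2199, 2911 and 2011 at the 8-cell stage, 1228, 1779 and 330.4 at the 16-cell stage and 181, 227 and 203 in blastocysts. The 8-cell libraries were the highest of the series and the blastocysts the lowest. DNAJB1 fell at the 16-cell stage (difference -1.38 ± 0.42, adjusted p = 0.0166) and again in blastocysts (difference -2.12 ± 0.42, adjusted p = 0.000577), while its 8-cell difference was 0.85 ± 0.42 (SE, adjusted p = 0.217). The 16-cell fall was lost without replicate 2 of the 8-cell stage or replicate 3 of the 16-cell stage (adjusted p = 0.0642 and 0.116). DNAJB4, a cytosolic relative of DNAJB1, was at 444, 354 and 156 at the 8-cell stage and 4.49, 31.1 and 79.8 at the 16-cell stage and fell there (difference -3.35 ± 0.71, adjusted p = 0.00134). The highest 16-cell library of DNAJB4 lay below the lowest 8-cell library.

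DNAJB2, which in neurons sorts clients of HSP70 for degradation, rose at the 16-cell stage from 0.713, 19.9 and 11.8 to 62.9, 147 and 111 (difference 3.23 ± 0.95, adjusted p = 0.0139). The call was lost without replicate 1 of the 8-cell stage (adjusted p = 0.0778). DNAJB6, a strong suppressor of protein aggregation, was among the best covered DNAJB genes, with stage means of 1145 to 2335 and no call in any comparison. The remaining call of the family at the 16-cell stage was that of DNAJB7, named after its values were seen. DNAJB7 had 8 reads in the whole series. Its 16-cell libraries held 0, 3 and 4 reads, 1 blastocyst library held 1 read and every other library held 0. It passed the filter only through its 16-cell reads and that 1 read. This leaves its call, though counted above, without weight as support. DNAJB5, DNAJB12, DNAJB13 and DNAJB14 were called in no comparison.

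The DNAJC genes share little beyond the J domain, and they moved in both directions: 4 rose and 1 fell at the 8-cell stage, 6 rose and 8 fell at the 16-cell stage, and 3 rose and 2 fell in blastocysts. Of the 25 tested these were 16% and 4%, 24% and 32%, and 12% and 8%. For all genes the shares were 8.64% and 4.13%, 14.8% and 16.3%, and 18.2% and 13.1%. In blastocysts both DNAJC shares thus lay below those of all genes. DNAJC10 (ERdj5), an ER disulfide reductase, was at 244, 173 and 219 at the 4-cell stage, 1036, 428 and 1314 at the 8-cell stage, 769.6, 491 and 624 at the 16-cell stage and 1088, 579.5 and 854 in blastocysts. All libraries from the 8-cell stage on lay above those of the 4-cell stage, and the 8-cell rise was 4.37-fold (difference 1.97 ± 0.41, adjusted p = 0.00196). DNAJC3 (p58IPK), an ER co-chaperone of HSPA5 that also restrains the kinase PERK, rose at the same step from 279.6, 344 and 257 to 883, 670.4 and 743 (difference 1.37 ± 0.41, adjusted p = 0.0308) and was at 2528, 1232 and 1126 in blastocysts. The 8-cell call of DNAJC3 was lost without any 1 of the 4-cell libraries or without replicate 1 or 3 of the 8-cell stage (adjusted p = 0.0532 to 0.0997), and its blastocyst value stood 5.15-fold above GV oocytes (difference 2.28 ± 0.41, adjusted p = 0.000122). DNAJC25, a membrane-bound DNAJ protein, was at 75.6, 25.2 and 139 at the 8-cell stage and 616, 339 and 596 at the 16-cell stage and rose there (difference 2.86 ± 0.68, adjusted p = 0.00315).

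DNAJC12, which assists the enzymes that hydroxylate aromatic amino acids, had 1 read in the 9 libraries up to the 4-cell stage, in an MII oocyte pool. In 8-cell embryos it was at 89.1, 185 and 22.3, at least 142-fold above the 4-cell stage by a floor of 3 reads over that stage (adjusted p = 0.00246). The later libraries, at 8.99, 0 and 98.4 at the 16-cell stage and 27.3, 0 and 4.84 in blastocysts, lay at 0 in 1 library of each stage and below the highest 8-cell library in all, and the 16-cell difference did not pass (adjusted p = 0.0955). DNAJC19, part of the motor that pulls proteins into mitochondria, was at 111, 163 and 86.7 in MII oocytes, 6.75, 3.39 and 10.4 at the 4-cell stage, 90.5, 0 and 59.1 at the 8-cell stage and 327, 342 and 143 at the 16-cell stage. The 4-cell libraries were all below the MII libraries (difference -3.56 ± 0.93, adjusted p = 0.0924), and the 16-cell libraries all above the 8-cell libraries (difference 3.45 ± 0.93, adjusted p = 0.00765). Without replicate 2 of the 8-cell stage, which had 0 reads of DNAJC19, the 16-cell difference was 1.73 (adjusted p = 0.0292), and the call was lost without it and 16-cell replicate 1 together (0.0637), with array weights (0.0879) and with both stages alone (0.076). DNAJC5, the cysteine string protein of secretory vesicles, rose at the 16-cell stage from 67 ± 31 to 411 ± 98.5 (difference 2.61 ± 0.67, adjusted p = 0.00569), a call that was lost with array weights (adjusted p = 0.0673).

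**Figure D4:**
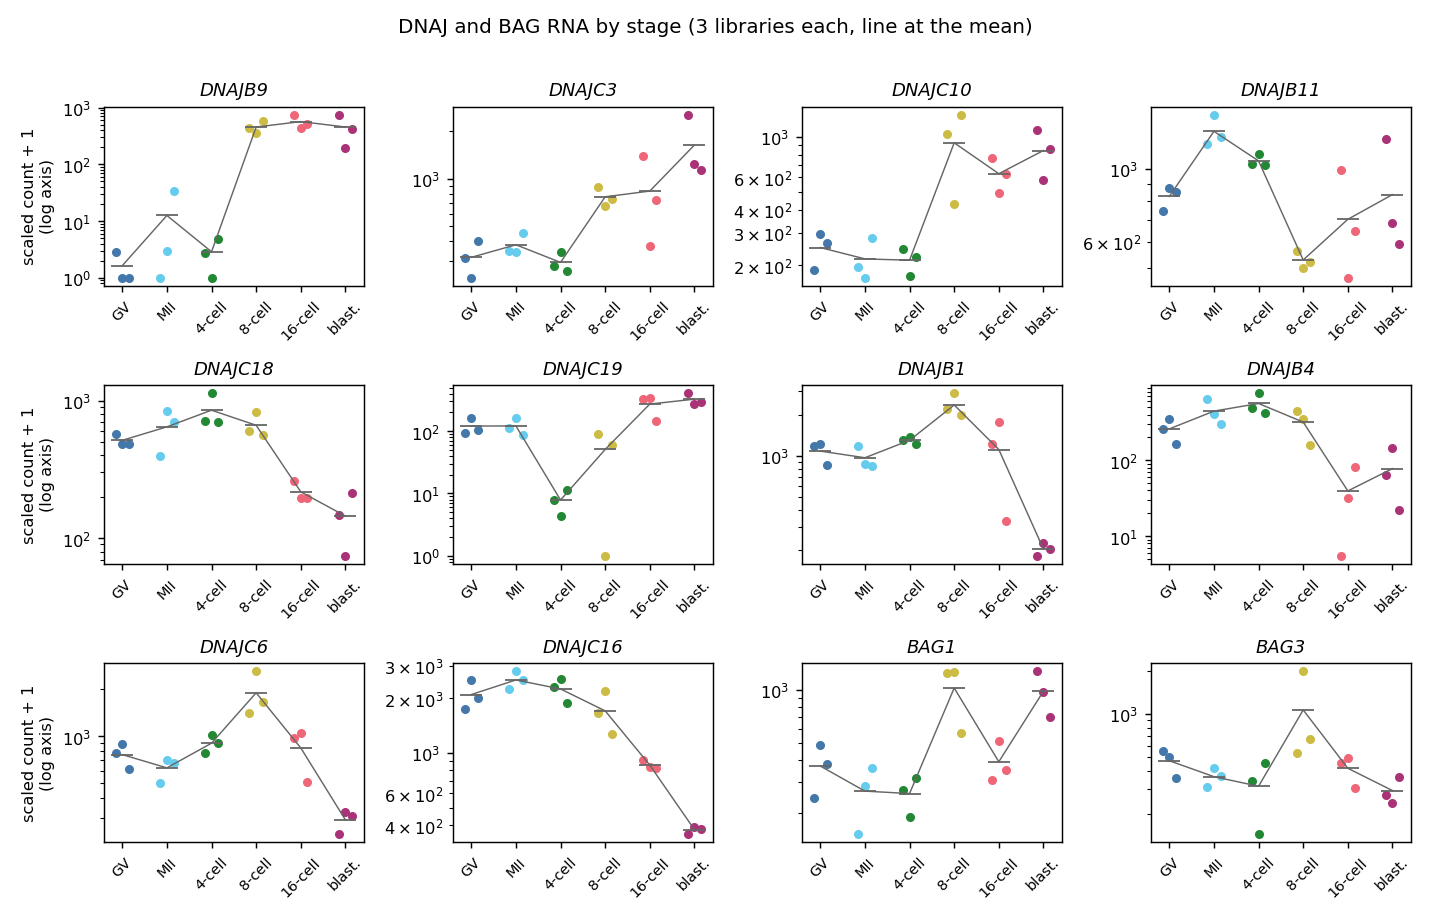
Scaled counts plus 1 (log axis, each panel with its own range) of 10 DNAJ genes and of BAG1 and BAG3 in each library by stage. Points are the 3 libraries of a stage and horizontal marks their mean. DNAJB9 steps up at the 8-cell stage, DNAJC16 and DNAJC18 descend to the blastocyst, and BAG1 and BAG3 have their highest means at the 8-cell stage.

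DNAJC16 and DNAJC18, both membrane-bound DNAJ proteins, were among the genes that fell. DNAJC16 was at 1643, 2189 and 1261 at the 8-cell stage, 908, 830.1 and 824 at the 16-cell stage and 357, 392 and 382 in blastocysts. Its libraries did not overlap between these 3 stages, and they lay closest together in blastocysts. DNAJC16 fell at the 16-cell stage (difference -0.95 ± 0.26, adjusted p = 0.00897) and in blastocysts (difference -1.17 ± 0.26, adjusted p = 0.00171). The 16-cell call was lost with array weights (adjusted p = 0.0522) and with both stages alone (adjusted p = 0.105). DNAJC18 fell at the 16-cell stage from 599.6, 820.1 and 559 to 258, 195 and 195 (difference -1.58 ± 0.39, adjusted p = 0.00439). DNAJC27, a DNAJ protein joined to a small GTPase of the RAB type, fell there from 913 ± 604 to 249 ± 212 (difference -1.99 ± 0.59, adjusted p = 0.0137), with overlapping libraries and the call lost without replicate 2 of the 8-cell stage (adjusted p = 0.0871) or replicate 1 of the 16-cell stage (adjusted p = 0.0765).

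DNAJC6 (auxilin), which strips clathrin from vesicles, was at 777, 1017 and 909 at the 4-cell stage, 1413, 2615 and 1668 at the 8-cell stage, 967, 1048 and 505 at the 16-cell stage and 235, 325 and 308 in blastocysts. It was highest at the 8-cell stage and lowest in blastocysts, and all 3 steps passed (adjusted p = 0.0458, 0.00972 and 0.00185). The 8-cell call was lost in 12 of the 18 fits with 1 library left out, with the highest adjusted p, 0.16, without replicate 1 of the 4-cell stage, and the 16-cell call without replicate 2 of the 8-cell stage or replicate 3 of the 16-cell stage (adjusted p = 0.0561 and 0.0606). DNAJC13 (RME-8), which works on endosomes, fell at the 8-cell stage from 2584 ± 232 to 1351 ± 633 (difference -1.06 ± 0.33, adjusted p = 0.0388) and rose in blastocysts to 3206 ± 762 (difference 1.08 ± 0.33, adjusted p = 0.0163). Its fall was lost without replicate 2 of the MII oocytes (adjusted p = 0.0515), any 1 of the 4-cell libraries (0.074, 0.117 and 0.0986) or replicate 2 of the 8-cell stage (0.191), and its rise without replicate 1 or 3 of the blastocysts (adjusted p = 0.0628 and 0.0614).

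DNAJC22, whose fly counterpart is needed for endocytosis, had reads chiefly in blastocysts, at 76, 122 and 55.2, against 0 reads in all 16-cell libraries. It was at least 50.1-fold higher there than in 16-cell embryos (adjusted p = 1.01e-05). The fall called at the 16-cell stage (adjusted p = 0.0356) rests on 8-cell libraries at 0.713, 25.2 and 2.62 and was lost without replicate 2 of that stage (adjusted p = 0.212) and without any 1 of the 16-cell libraries (0.064, 0.0694 and 0.0691). DNAJC4 rose in blastocysts from 0, 0 and 7.42 to 22.7, 16.4 and 21.3 (difference 2.69 ± 0.98, adjusted p = 0.0405), and the call was lost without replicate 1 or 2 of the 16-cell stage and without any 1 of the blastocysts (adjusted p = 0.073 to 0.128). DNAJC5G, DNAJC7, DNAJC8, DNAJC17 and DNAJC30 were called in no comparison, with stage means of 657 to 1158 for DNAJC7, a partner of HSP70 and HSP90.

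The CCT chaperonin is built from a set of different subunits, and their RNAs rose chiefly at the 16-cell stage. There 6 of the 8 CCT genes in the table were higher (75%) and none was lower, beside 14.8% and 16.3% of all genes. Their median difference was 1.66 beside 0 for all genes tested (1.54 beside -0.121 with library medians set equal). CCT4 was at 176, 173 and 175 in MII oocytes, 319.5, 159 and 276 at the 4-cell stage, 1767, 245 and 1175 at the 8-cell stage, 5961, 3123 and 4412 at the 16-cell stage and 7309.8, 4502 and 4741 in blastocysts. Replicate 2 of the 8-cell stage lay within the 4-cell libraries, and all 6 later libraries lay above the 8-cell stage. CCT4 rose at the 8-cell stage (difference 1.71 ± 0.50, adjusted p = 0.0254) and at the 16-cell stage (difference 2.44 ± 0.50, adjusted p = 0.000985), where the difference was 1.59 without replicate 2 of the 8-cell stage (adjusted p = 0.00396). The first call was lost without replicate 2 or 3 of the 4-cell stage (adjusted p = 0.129 and 0.0504) and without replicate 1 or 3 of the 8-cell stage (adjusted p = 0.164 and 0.12). It was also lost with voom (adjusted p = 0.0603), with library medians set equal (0.058) and with both stages alone (0.0942).

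CCT6A had the largest difference of any chaperone gene between GV oocytes and blastocysts (difference 7.38 ± 0.74, adjusted p = 8.03e-08). It was at 2.84, 34.6 and 20.5 in GV oocytes, 5.06, 9.59 and 2.61 at the 4-cell stage, 69.9, 22.9 and 109 at the 8-cell stage, 1146, 443 and 1823 at the 16-cell stage and 4782, 2077 and 2833 in blastocysts. The libraries of the last 4 stages did not overlap from one stage to the next. CCT6A rose at the 8-cell stage (difference 2.76 ± 0.74, adjusted p = 0.015) and 16.9-fold at the 16-cell stage (difference 4.01 ± 0.74, adjusted p = 0.000388), while the blastocyst difference was 1.64 ± 0.74 (SE, adjusted p = 0.0987). The 8-cell call was lost without replicate 3 of the 4-cell stage (adjusted p = 0.065) or replicate 3 of the 8-cell stage (adjusted p = 0.0809). It was also lost with voom (adjusted p = 0.0985) and with both stages alone (adjusted p = 0.0703). CCT6B, its close relative known mainly from testis, rose at the 16-cell stage from 4.99, 1.53 and 5.25 to 68.5, 33.9 and 148 (difference 3.37 ± 0.75, adjusted p = 0.002), a call lost with both stages alone (adjusted p = 0.0608). How reads that match both copies were counted is not known, so their separate values are uncertain.

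CCT7 was at 215, 233 and 135 in MII oocytes, 435, 582 and 432 at the 4-cell stage, 271, 186 and 278 at the 8-cell stage, 1246, 1237 and 1316 at the 16-cell stage and 1172, 1097 and 1583 in blastocysts. The 16-cell libraries were nearly equal and above all earlier ones, and the rise was 5.17-fold (difference 2.37 ± 0.33, adjusted p = 3.09e-05). CCT5 and CCT8 rose at the same step by smaller amounts, from 1191 ± 242 to 2129 ± 429 (difference 0.83 ± 0.29, adjusted p = 0.0358) and from 712 ± 194 to 1342 ± 124 (difference 0.95 ± 0.30, adjusted p = 0.0198). The CCT5 call was lost without replicate 1 or 2 of the 8-cell stage and without replicate 1 or 3 of the 16-cell stage (adjusted p = 0.0684 to 0.125), and the CCT8 call without replicate 2 of the 8-cell stage or replicate 3 of the 16-cell stage (adjusted p = 0.0993 and 0.0565).

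CCT2 took another course, with 1309, 1898 and 1252 at the 8-cell stage, 1473, 1169 and 1277 at the 16-cell stage and 5295, 3818 and 3752 in blastocysts, where it rose (difference 1.70 ± 0.27, adjusted p = 5.5e-05). All 3 blastocysts were above every earlier library of this gene. CCT3 was called in no comparison, with stage means of 2025 to 3494. TCP1, the remaining subunit of the complex, has a name outside the rule: it went from 1433 ± 63.6 in GV oocytes to 3739 ± 998 in blastocysts (adjusted p = 0.000304) and was called in no adjacent step. In blastocysts compared with GV oocytes, 6 of 8 CCT genes were higher and none lower, beside 25.6% and 20.4% of all genes. With library medians set equal, CCT2 and CCT5 were no longer called in that comparison (adjusted p = 0.112 and 0.0568).

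**Figure D5:**
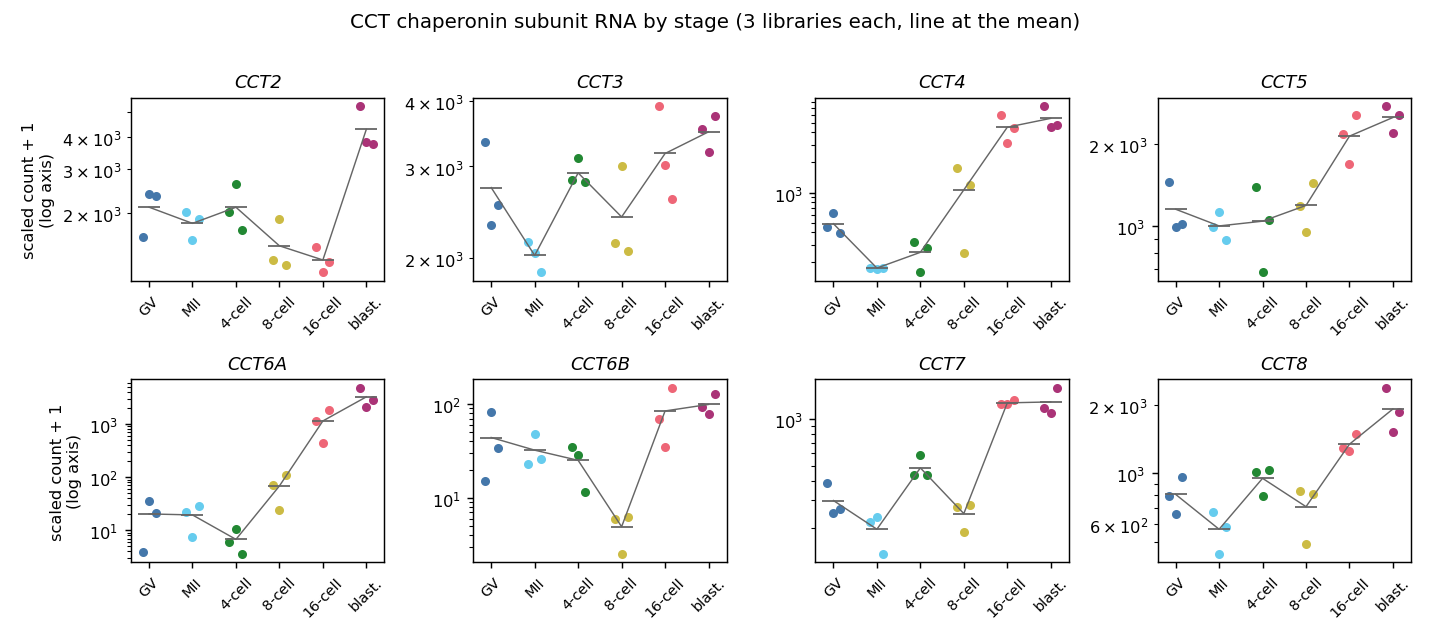
Scaled counts plus 1 (log axis, each panel with its own range) of the 8 CCT genes in each library by stage. Points are the 3 libraries of a stage and horizontal marks their mean. CCT4, CCT6A, CCT6B and CCT7 step up at the 16-cell stage, CCT2 in blastocysts, and CCT3 stays within stage means of 2025 to 3494.

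BAG proteins tie HSP70 to further machinery, and 2 of the 5 BAG genes in the table rose at the 8-cell stage. This was 40%, a small count, beside 8.64% of all genes called higher there. BAG1, which links HSP70 to the proteasome, was at 269, 188 and 313 at the 4-cell stage, 1236, 1259.9 and 566 at the 8-cell stage, 306, 514 and 349 at the 16-cell stage and 1272, 968 and 696 in blastocysts. It rose, fell and rose again, with no overlap of libraries between neighbouring stages (difference 1.91 ± 0.42, adjusted p = 0.00333, then difference -1.33 ± 0.42, adjusted p = 0.0205, then difference 1.31 ± 0.42, adjusted p = 0.0206). Left-out libraries did not end the first call. The second was lost without replicate 1 or 2 of the 8-cell stage (adjusted p = 0.0818 and 0.0812) and without replicate 1 or 3 of the 16-cell stage (0.0605 and 0.0525), and the third without replicate 1 of the 16-cell stage (0.0676) or replicate 1 or 2 of the blastocysts (0.0931 and 0.0536).

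BAG3, which directs HSP70 clients to autophagy together with HSPB8, was at 339, 144 and 452 at the 4-cell stage, 536, 1989.9 and 671 at the 8-cell stage and 453, 491 and 304 at the 16-cell stage. Replicate 2 of the 8-cell stage was far above the other libraries of the series, and the 8-cell rise (difference 1.66 ± 0.46, adjusted p = 0.02) was lost without it (adjusted p = 0.105) and without replicate 2 of the 4-cell stage (adjusted p = 0.142). BAG2, an inhibitor of the ubiquitin ligase CHIP, was called in no adjacent step and was higher in blastocysts, at 739 ± 179.8, than in GV oocytes, at 279 ± 37.9 (difference 1.37 ± 0.38, adjusted p = 0.0053). BAG4 and BAG5 were called in no comparison, with stage means of 207 to 370 and 39.7 to 133. BAG6 is listed under an older name (BAT3) and so falls outside the rule. It had means of 249 ± 89.2 in GV oocytes, 238 ± 61 in 16-cell embryos and 964 ± 451 in blastocysts.

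HSPBP1, an exchange factor of HSP70, had stage means of 79.4 to 353 and was called in no comparison. HSPBAP1, which binds HSPB1, was lower in blastocysts, at 56.1 ± 26.9, than in GV oocytes, at 186 ± 48.1 (difference -1.73 ± 0.64, adjusted p = 0.0322). The call was lost without any 1 of the GV oocyte libraries or without replicate 1 or 2 of the blastocysts (adjusted p = 0.0557 to 0.128). Among the genes that were lower in blastocysts than in GV oocytes, DNAJB4 differed by -1.98 ± 0.71, HSPA6 by -2.07 ± 0.74 and HSPA1L by -2.73 ± 0.90 (SE, adjusted p = 0.0276, 0.0255 and 0.0171). Each of these calls was lost without 1 of several libraries: for DNAJB4 GV oocyte replicate 1 or 2 or blastocyst replicate 3 (adjusted p = 0.0656, 0.0999 and 0.163), for HSPA6 GV oocyte replicate 1 or 2 or any blastocyst (0.0555 to 0.0819), and for HSPA1L GV oocyte replicate 3 or blastocyst replicate 2 (0.0636 and 0.136). In all, 21 of the 77 genes tested were called in none of the 6 comparisons, a count likewise not made over all genes.

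Genes that work with these chaperones were described from lists chosen by function. Of 5 tested heat shock factors and their regulators, 2 were higher at the 8-cell stage and the same number at the 16-cell stage, with none lower. These counts are small, and the shares of each list are read against those of all genes tested, given above for each comparison. HSF2, a heat shock factor linked to development, went from 22 ± 3.01 in 4-cell embryos to 117 ± 20 in 8-cell embryos (adjusted p = 0.0166) and 760.2 ± 165 in 16-cell embryos (adjusted p = 0.0023). HSBP1, a negative regulator of heat shock factors, rose at the same steps, from 38.7 ± 18.3 to 116 ± 33.1 and then to 541 ± 223 (adjusted p = 0.0372 and 0.00195). HSF1, the main factor of the heat shock response, was called in no comparison, with adjusted p from 0.26 to 1.

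Of 26 cochaperones of HSP90 and HSP70, 2 rose and none fell at the 8-cell stage, 3 rose and 2 fell at the 16-cell stage, and 5 rose and 5 fell in blastocysts. The shares at the 16-cell stage, 11.5% and 7.69%, lay below the 14.8% and 16.3% of all genes, and the 19.2% called in each direction in blastocysts stood beside 18.2% higher and 13.1% lower. PTGES3 (p23), which stabilises the closed form of HSP90, went from 383 ± 15.8 in 4-cell embryos to 2792 ± 871 in 8-cell embryos (adjusted p = 1.93e-05) and 7227 ± 3108 in 16-cell embryos (adjusted p = 0.0107). FKBP5, an HSP90 partner of steroid receptors, fell at the 16-cell stage from 3566 ± 1278 to 557 ± 367 (adjusted p = 1.85e-05).

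Of 30 tested genes of protein folding in the ER, 2 rose and 3 fell at the 8-cell stage, 6 rose and 5 fell at the 16-cell stage, and 13 rose and 3 fell in blastocysts, with a median difference of 1.14 at the last step beside 0.185 for all genes. The last counts were 43.3% and 10% of the list, beside 18.2% and 13.1% of all genes. CALR, the lectin chaperone calreticulin, fell at the 8-cell stage from 276 ± 119.9 to 72.4 ± 52.2 (adjusted p = 0.00418) and rose at the 16-cell stage to 757 ± 264 (adjusted p = 2.02e-05). MANF, a secreted ER stress protein, rose at the 8-cell stage from 0.938 ± 1.62 to 126 ± 29.7 (adjusted p = 0.000176). At this step DNAJB9, DNAJC3 and DNAJC10 rose, HSP90B1 and DNAJB11 fell, and HSPA5 was not called. The calls of DNAJC3, HSP90B1 and DNAJB11 were lost when some single libraries were left out.

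Of 15 tested genes of mitochondrial folding and proteolysis, none was called at the 8-cell stage by limma (4 at an unadjusted p under 0.05), 5 rose and 3 fell at the 16-cell stage, and 3 rose and 1 fell in blastocysts. The shares were 33.3% and 20% at the 16-cell stage, beside 14.8% and 16.3% of all genes, and 20% and 6.67% in blastocysts, beside 18.2% and 13.1%. CLPX, the unfolding subunit of the ClpXP protease, fell in blastocysts from 4170.4 ± 1679 to 1020.4 ± 45.6 (adjusted p = 4.91e-06), where HSPD1, HSPE1 and HSPA9 rose. Of 17 tested CCT partners, prefoldin subunits and tubulin cofactors, 4 rose and 3 fell at the 16-cell stage, or 23.5% and 17.6%, beside 14.8% and 16.3% of all genes. PFDN5, a prefoldin subunit, rose there from 116 ± 71.4 to 739.5 ± 196 (adjusted p = 0.000329) and TBCE, a tubulin cofactor, fell from 1788 ± 1015 to 497 ± 122 (adjusted p = 0.001). In MII against GV oocytes, only 2 genes of this list (11.8%) were lower and none higher, beside 0.613% and 0.0992% of all genes. At the 8-cell stage 3 (17.6%) were lower and 1 (5.88%) higher, beside 4.13% and 8.64%. In blastocysts against GV oocytes 6 (35.3%) were lower and 3 (17.6%) higher, beside 20.4% and 25.6%, where 6 of 8 CCT genes were higher.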

How the data were processed

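Per the labels' protocols, pools of 10 oocytes or embryos were lysed, and cDNA was primed with random and poly(A) primers, amplified isothermally (NuGEN) and sequenced. The protocol describes no step that marks strand, so reads from antisense partners cannot be told apart. The deposited table holds log2-like, variance-stabilised values of 21668 genes in 18 libraries, made, per the submitters' processing notes, with CASAVA 1.6, TopHat2 2.0.3, HTSeq and DESeq on the build UMD3.1. The sources used here name no annotation and no rule for reads with several matches.

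The lowest deposited value, 1.097, was that of 0 reads. The variance-stabilising transformation was inverted in closed form, and 100% of 390024 values gave whole reads (tolerance 1e-06). Scaled counts are those reads divided by median-of-ratios size factors. Read totals of 2438473 to 11971840 set the precision, which covers counting error only, since amplified reads are not independent molecules.

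limma 3.58.1 (R 4.3.3) fitted 1 model of stage to the deposited values of all 18 libraries, and let the variance follow the mean level. The 17138 genes detected, with 1 read or more, in 3 or more libraries entered the two-sided tests, with Benjamini-Hochberg adjustment over all of them and a threshold of 0.05. The fit was tested on simulated data. Alternatives were voom on recovered reads, array weights, equal library medians, quantile normalization, no filter and a filter at 10 reads, a replicate block, each pair of stages alone and leaving out libraries. Deviations of same-numbered libraries correlated at 0.113, 0.134 and 0.108 between the 16-cell stage and blastocysts, all above a threshold of 0.1. Libraries of unlike number were not compared and no source names what the numbers share. Whether the libraries are paired is thus not settled, and the main fit held no replicate block. The block kept all 23 calls of blastocysts against 16-cell embryos and gave 26.

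Named genes were, per comparison, up to 8 called with the largest rise and 8 with the largest fall, a list of well-known members, the 2 with the highest mean in each family, and at most 3 called genes per partner list and comparison. 1 of the partner genes this rule names is not reported here. HSF1 was added after their values were seen. Members and lists were chosen with earlier results of these data known. A further 6 genes of these families are listed under other names and were not counted. Tables and plots used Python 3.11.15, pandas 2.3.3 and matplotlib 3.10.9.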

Additional observations from a re-analysis of the deposited data

How the results depend on the processing

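No call of a chaperone gene reversed its direction under any alternative; differences that were not called were not followed. Of the calls, 5 of 13 at the 8-cell stage, 11 of 34 at the 16-cell stage, 18 of 23 in blastocysts against 16-cell embryos and 29 of 41 in blastocysts against GV oocytes were kept in all 9 other settings and all 18 fits with 1 library left out in which the gene could be tested. The other settings alone ended 7, 22, 5 and 6 of these calls in at least 1 setting. HSPB3, HSPB8 and DNAJB7 fall under the filter in some of those fits. With array weights, 3 genes were lower in MII than in GV oocytes, 3 higher and 3 lower at the 4-cell stage, and 11 higher and 6 lower at the 16-cell stage. With each pair of stages alone, 3 were lower in MII oocytes, 1 was higher and 1 lower at the 4-cell stage, 5 higher and 2 lower at the 8-cell stage, and 8 higher and 4 lower at the 16-cell stage. Without 8-cell replicate 2 and 16-cell replicate 1 together, 1 was lower in MII oocytes, and 1 was higher and 1 lower at the 4-cell stage. With library medians set equal, 5 were higher and 8 lower at the 8-cell stage and 13 higher at the 16-cell stage, and quantile normalization gave 7 lower at the 8-cell stage. The replicate block gave 7 lower at the 8-cell stage in place of 4 and ended none of the reported calls. Outside the step from 16-cell embryos to blastocysts the correlations of same-numbered libraries ran from -0.108 to 0.202. At least 1 of 3 was under 0.1 in each of those comparisons. Libraries of unlike number were not compared, so pairing is not settled for any comparison. The cause of these shifts was not tested.

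Leaving out 1 library gave 0 to 1 genes lower in MII oocytes, 0 to 1 higher and 0 to 1 lower at the 4-cell stage, 5 to 10 higher and 1 to 8 lower at the 8-cell stage, 14 to 20 higher and 8 to 15 lower at the 16-cell stage, 12 to 18 higher and 5 to 7 lower in blastocysts against 16-cell embryos, and 24 to 31 higher and 8 to 13 lower against GV oocytes. At the 8-cell stage the count of higher genes was 5 without replicate 2 or 3 of the 4-cell stage or replicate 3 of the 8-cell stage. The count of lower genes there was 2 without MII replicate 2 or 4-cell replicate 1 or 3, 1 without 8-cell replicate 2 and 8 without 16-cell replicate 1. At the 16-cell stage, 8 were lower without 8-cell replicate 2 and 9 without 16-cell replicate 3. The share of higher genes among the calls went, with library medians set equal, from 69.2% to 38.5% at the 8-cell stage (53.3% with quantile normalization, 56.2% with the replicate block), from 58.8% to 48.1% at the 16-cell stage and from 73.9% to 61.9% in blastocysts against 16-cell embryos. The counts over all genes for equal medians are given with these shares in the Results. At the 8-cell stage, 1031 of 2454 calls over all genes were lower with quantile normalization and 813 of 2368 with the replicate block. Setting library medians equal moved the median difference of all genes from 0.185 to -0.174 in blastocysts against 16-cell embryos and that of the 77 chaperone genes from 0.3 to -0.058, while the medians of the HSP90 genes (1.95) and of HSPD1 and HSPE1 (2.73) stayed above 0. It ended the calls of BAG3, CCT4, DNAJC3 and DNAJC6 at the 8-cell stage, of CCT5, CCT8, HSPA5, HSPD1, HSPE1, DNAJC2, DNAJC21 and DNAJC24 at the 16-cell stage, and of BAG1, DNAJC4, DNAJC13 and HSP90B1 in blastocysts against 16-cell embryos. Depth limits genes with few reads, such as DNAJB7, HSPB3 and DNAJC4, and 16-cell replicate 2, with 2438473 reads, the most.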
